A study of Mus musculus with 8 samples.

Results

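The genes that mark the fibro-adipogenic and tendon lineages of skeletal muscle were followed in the DNA methylome of old and young muscle stem cells, 10 in all. They are Pdgfra, Pdgfrb, Dcn, Lum, Pparg, Cebpa, Scx, Mkx, Twist2 and Osr1, taken by name, each with its RefSeq span on build mm10 and 5 kb on each side. These regions held 9904 of the 33108039 CpG cytosine positions in the deposited table, and the 10 genes were all among the 21631 protein-coding genes on chromosomes 1 to 19 and X. The cells came from limb muscle of C57BL/6 males, 4 old mice of 22 months and 4 young mice of 4 months, with 1 animal per library and whole-genome bisulfite sequencing at 115000000 to 200000000 reads each per the labels. Sorting kept cells with VCAM and without CD45, CD31 or Sca1, which are antigens of blood cells, of endothelial cells and of fibro-adipogenic progenitors among others. The question is how methylation differs with age, here at genes whose products belong to neighbouring cell types.

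Muscle stem cells lie on the muscle fibre and make muscle. Fibro-adipogenic progenitors lie between the fibres, carry the PDGF receptor alpha, and give rise to fibroblasts and fat cells. Tendon cells arise from progenitors that use the transcription factors Scx and Mkx. In mammals, methylation of CpG-dense gene starts goes with silence, but many starts of lineage regulators stay unmethylated in cells that do not use the gene, so that a low level is no sign of expression.

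The table gives 1 smoothed level (mu) and 1 dispersion (phi) per age and position. Values of single animals and read counts are not part of it, so the levels below are the authors' group means without SD, and the depth per position is unknown. A level between 0% and 100% in sorted cells cannot tell a share of cells from a share of alleles. Over all positions of chromosomes 1 to 19 and X the level was 64.6% in old and 64.1% in young cells, a difference of 0.473 points. Of the marker genes of the sorted cells themselves, 9 of 10 had their less methylated end under 20% in both ages, against 6 of 15 endothelial and 2 of 14 blood cell genes. Of all genes 62.5% did. These 3 lists also differ in CpG number, with medians of 125, 56 and 35 positions per end, so lineage and CpG density cannot be told apart. For each gene, levels within 1 kb of each end of the span were compared, and the end whose level averaged over the ages was lower is named the less methylated end. It was the start of transcription in 82.0% of 16811 genes whose strand the RefSeq promoter table gives, and in all 4 of the 10 genes that this table holds.

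The sequences of those 4 genes show what the measured windows contain, since the density of CpGs differs widely between them. Each covers 250 bases before to 50 after a start of transcription, from RefSeq on GRCm38.p6, plus strand, with every CG in capitals. Cebpa lies at chr7:35119043-35119342, Twist2 at chr1:91801211-91801510 and Pdgfra at chr5:75152001-75152300. Pparg has 3 starts, at chr6:115360894-115361193, chr6:115362099-115362398 and chr6:115421816-115422115; the third is the one from which the fat-cell isoform is made.
Cebpa: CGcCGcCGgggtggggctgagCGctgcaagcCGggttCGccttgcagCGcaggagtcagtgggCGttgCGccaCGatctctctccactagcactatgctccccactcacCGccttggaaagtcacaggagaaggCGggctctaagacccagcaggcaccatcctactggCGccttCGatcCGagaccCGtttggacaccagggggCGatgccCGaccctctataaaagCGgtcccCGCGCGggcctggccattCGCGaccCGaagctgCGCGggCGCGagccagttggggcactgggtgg
Twist2: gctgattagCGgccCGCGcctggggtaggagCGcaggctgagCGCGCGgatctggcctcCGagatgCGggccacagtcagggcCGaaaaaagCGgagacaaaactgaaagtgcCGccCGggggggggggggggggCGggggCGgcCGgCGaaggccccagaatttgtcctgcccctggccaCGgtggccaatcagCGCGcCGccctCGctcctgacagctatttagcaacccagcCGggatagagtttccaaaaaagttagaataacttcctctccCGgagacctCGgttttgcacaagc
Pparg start 1: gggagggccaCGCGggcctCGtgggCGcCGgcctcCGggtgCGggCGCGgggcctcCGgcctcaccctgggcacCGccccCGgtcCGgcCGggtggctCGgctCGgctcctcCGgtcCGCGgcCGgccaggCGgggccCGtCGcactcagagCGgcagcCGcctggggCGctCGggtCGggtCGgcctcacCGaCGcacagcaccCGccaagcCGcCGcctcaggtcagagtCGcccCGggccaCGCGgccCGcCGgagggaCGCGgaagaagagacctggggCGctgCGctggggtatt
Pparg start 2: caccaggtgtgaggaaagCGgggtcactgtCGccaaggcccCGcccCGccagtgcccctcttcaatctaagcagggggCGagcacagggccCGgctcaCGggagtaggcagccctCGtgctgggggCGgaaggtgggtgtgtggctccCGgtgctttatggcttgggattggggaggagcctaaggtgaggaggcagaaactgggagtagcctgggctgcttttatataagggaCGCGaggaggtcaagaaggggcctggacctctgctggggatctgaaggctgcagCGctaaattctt
Pparg start 3: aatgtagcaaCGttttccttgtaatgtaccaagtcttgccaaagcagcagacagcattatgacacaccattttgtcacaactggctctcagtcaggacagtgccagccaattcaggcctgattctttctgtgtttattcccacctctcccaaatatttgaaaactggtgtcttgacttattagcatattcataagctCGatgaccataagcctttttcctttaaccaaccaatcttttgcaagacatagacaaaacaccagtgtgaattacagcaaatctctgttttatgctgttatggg
Pdgfra: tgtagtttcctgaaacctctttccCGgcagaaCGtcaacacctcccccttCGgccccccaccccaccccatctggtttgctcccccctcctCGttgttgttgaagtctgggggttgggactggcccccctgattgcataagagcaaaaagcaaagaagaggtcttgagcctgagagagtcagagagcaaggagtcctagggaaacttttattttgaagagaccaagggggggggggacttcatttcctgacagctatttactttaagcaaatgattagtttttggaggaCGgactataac

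The first start of Pparg held 44 CGs, a number that 2.26% of the 32619 promoter windows reach. Cebpa held 29 and Twist2 25, the second start of Pparg 13, Pdgfra 5 and the third start of Pparg 2, where the median of all windows was 7. The 3 CG-rich windows were nearly unmethylated in both ages. Cebpa stood at 2.31% in old and 2.42% in young cells, Twist2 at 3.26% and 3.32%, and the first start of Pparg at 2.22% in old and 2.19% in young cells. Of all promoter windows with 20 or more CGs, 98.2% were under 10% in both ages, so these low levels are what CG-rich starts show in general. The second start of Pparg was higher, at 14.0% in old and 13.4% in young cells. At the third start the level was at 30.4% in old and 25.3% in young cells over the 3 listed positions, and within 1 kb at 42.8% in old and 37.9% in young cells over 14 positions. The Pdgfra window held 1 listed position, at 12.9% in old and 11.7% in young cells. Within 1 kb of that start the level was 6.545% in old and 6.595% in young cells over 154 positions. Promoter windows with at most 5 CGs and at least 1 listed position had a median of 64.1% in old and 63.3% in young cells. That set is not matched to Pdgfra for the CpGs around the window. The letters TATAAA, searched on both strands, were found in the windows of Cebpa and of start 2 of Pparg, and in 13.7% of all windows.

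At their less methylated ends most of the 10 genes had nearly the same level in both ages. The difference was under 1 point in 6 of them, 4 were higher and 6 lower in old cells, and the median was -0.218 points, beside -0.0512 points over 19545 genes. Of all these genes 45.9% were higher in old cells. The median level was 12.2% in old and 12.0% in young cells for the 10 genes, and 10.6% in old and 10.7% in young cells for all genes. With windows of 2000 bp the median difference over the 10 genes turned to 0.016 points, and that over all genes to 0.028 points. None of the 10 genes was called at either end or over the span when each window was given 2 times the median p of its positions in the authors' deposited table, adjusted over all genes by Benjamini-Hochberg (adjusted p 1 each). No end or span of them had an unadjusted p under 0.05, the smallest being 0.657 for Lum. Over the whole table the same rule called 0% of 38816 gene end windows and 0% of 20483 spans, with 14 windows and 2 spans at an unadjusted p under 0.05. The rule needs most positions of a window to shift, so the absence of calls does not show that levels were equal.

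**Figure D1:**
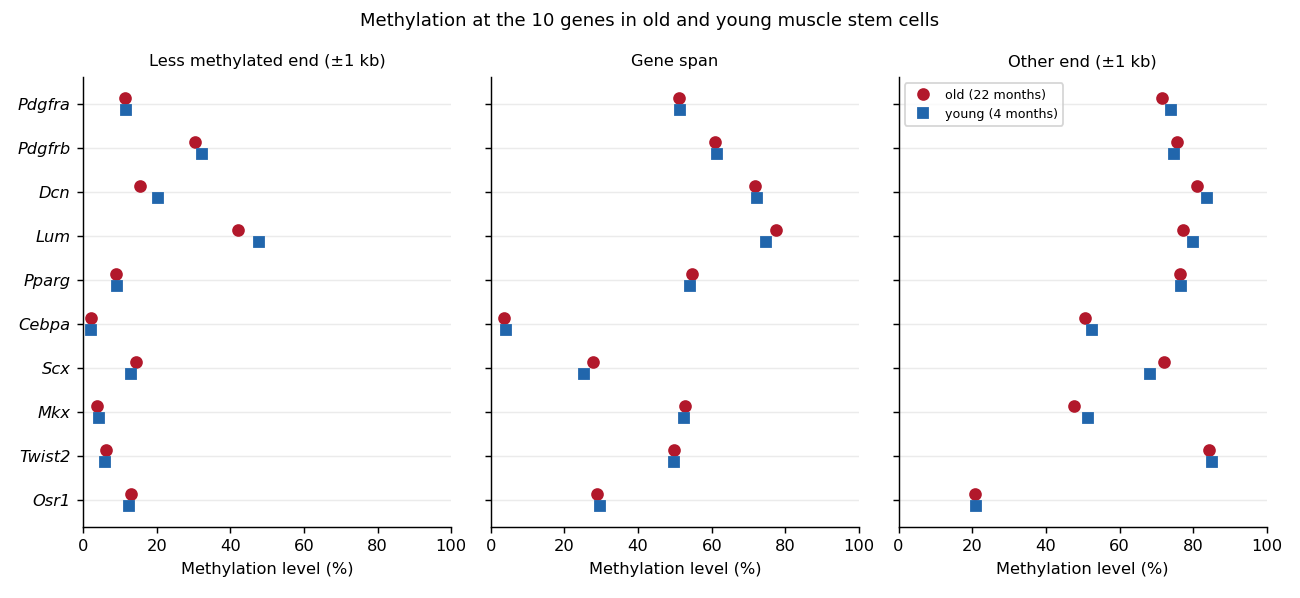
Methylation level (x axis, percent) of each of the 10 genes (rows) within 1 kb of its less methylated end, over its span and within 1 kb of its other end; red circles are the authors' mean of old cells and blue squares that of young cells, with no error available. Circle and square nearly coincide at most ends, while Dcn and Lum lie lower in old cells at the less methylated end (15.6% and 42.1% in old, 20.3% and 47.9% in young).

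The transcription factors that commit cells to the fat lineage differed in how much of the gene was unmethylated. Cebpa, a leucine zipper factor that drives fat-cell differentiation, lies on chromosome 7 (35119293 to 35121928) and was nearly unmethylated over the first 1668 bp of its span. The span averaged 3.68% in old and 4.04% in young cells over 368 positions, most of them in that CpG-dense first part. The bin of 500 bp centred 2.25 kb inside stood at 28.9% in old and 35.8% in young cells. Its less methylated end stood at 2.29% in old and 2.23% in young cells over 411 positions. Its other end, past the unmethylated stretch, stood at 50.5% in old and 52.7% in young cells. Pparg, the nuclear receptor that acts as master regulator of fat cells, spans 129526 bp on chromosome 6 (115360879 to 115490404). Its less methylated end was at 8.996% in old and 9.21% in young cells, and its span at 54.7% in old and 54.0% in young cells. The sequence 1 to 5 kb beyond that end showed a wider gap, with 77.6% in old and 66.7% in young cells over 25 positions. The tile of 1 kb with the smallest p of the Pparg region lay across the outer edge of this flank, mostly beyond it (115355001 to 115356000, 80.3% in old and 72.3% in young cells over 14 positions) and was not called (doubled median p 0.235, Benjamini-Hochberg adjusted p 1).

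The receptors for PDGF, which fibro-adipogenic progenitors (Pdgfra) and perivascular cells (Pdgfrb) use to receive growth signals, were unlike each other. Pdgfra, on chromosome 5 at 75151322 to 75198206, stood at 11.4% in old and 11.6% in young cells at its less methylated end and at 51.2% in old and 51.3% in young cells over its span. Its first kilobases were far lower than the rest: the first of 3 equal parts of the body was at 26.9% in old and 26.4% in young cells, and the middle part at 75.7% in old and 77.3% in young cells. Pdgfrb, on chromosome 18 at 61045127 to 61085067, had a less methylated end at 30.5% in old and 32.2% in young cells. Its span stood at 60.9% in old and 61.4% in young cells, and its other end at 75.6% in old and 74.9% in young cells. The level of both receptors was thus within 2 points between the ages at the less methylated end and over the span.

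The proteoglycans decorin (Dcn) and lumican (Lum), which bind collagen and shape its fibrils, had the fewest CpGs and the widest gaps between the ages at their less methylated ends. They lie near each other on chromosome 10, at 97479500 to 97518163 and 97565501 to 97572703. Dcn stood at 15.6% in old and 20.3% in young cells over 20 positions, a difference of -4.77 points, and Lum at 42.1% in old and 47.9% in young cells over 23 positions, a difference of -5.73 points. They were the 2 of the 10 genes that were lower in old cells by at least 3 points there, a limit chosen after the values were seen. The Dcn difference rested in large part on 1 CpG outside the span, at -760 and -759 bp. The other 18 positions of that end differed by -2.33 points, short of the limit. Of all less methylated ends 4.36% were lower by at least 3 points, and of the 4009 ends with only 10 to 40 positions 17% were. The difference of Dcn was reached by 1.995% of all ends and by 8.78% of the ends with 10 to 40 positions, and that of Lum by 1.38% and 6.31%.

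Single positions show where the gaps lie. All 20 positions at the Dcn end were lower in old cells. A pair of cytosines outside the span, at -760 and -759 bp from its start, stood at 48.7% in old and 75.5% in young cells, with an authors' p of 0.00722 and 0.0551. The positions from 19 to 467 bp inside the span differed by -0.97 to -3.89 points, with levels of 8.2% to 15.7% in old and 12.1% to 16.6% in young cells. At Lum, 18 positions were lower and 5 higher in old cells. The 4 positions at -279 to -265 bp from the start of the span stood at 46.8% in old and 66.4% in young cells (smallest authors' p 0.00231). Those at -912 and -911 bp went the other way, at 72.7% in old and 53.9% in young cells. Just inside Lum, from 15 to 105 bp, the level was 29.2% in old and 34.6% in young cells. The middle part of the body was higher in old cells, at 91.2% in old and 86.2% in young cells over 37 positions, as was the whole span, at 77.5% in old and 74.7% in young cells, while the bins of 500 bp centred 6.25 and 6.75 kb inside were lower, at 73.85% in old and 83.25% in young cells. Because the levels are smoothed over neighbours, positions next to each other share a value and are not separate measurements. Neither end held a position past the authors' FDR of 0.05. Less methylated ends of other cell types' genes had median differences of 0.0216 points (27 other fibro-adipogenic and connective tissue genes), 0.386 points (15 endothelial genes) and -0.343 points (14 blood cell genes); the part of such cells in the Dcn and Lum values was not tested.

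**Figure D2:**
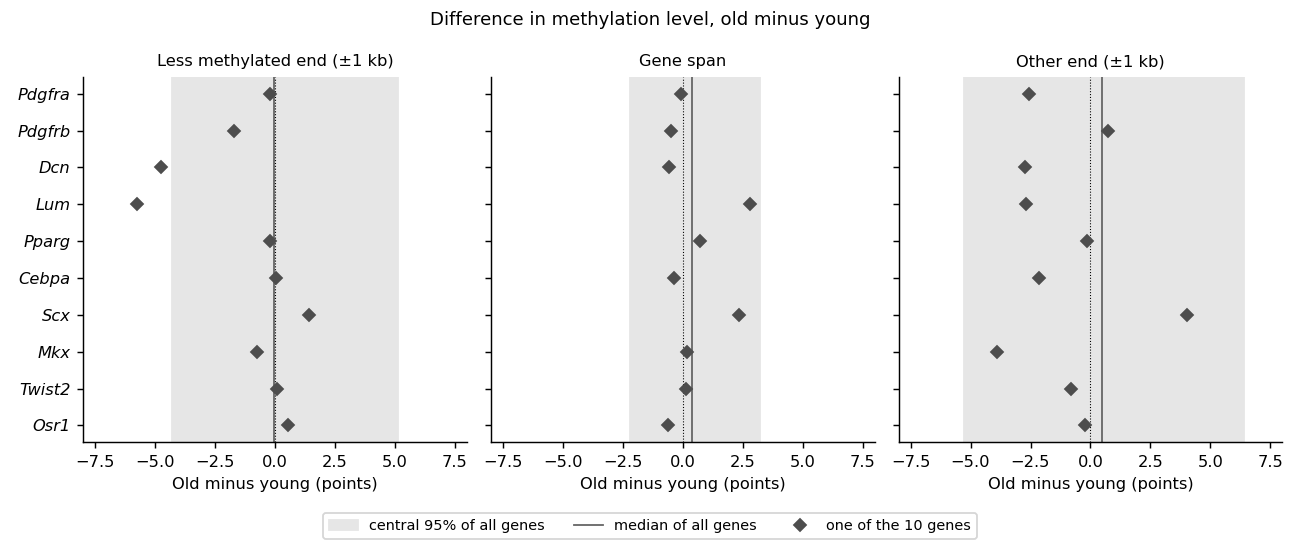
Difference in level, old minus young in percentage points (x axis), for each of the 10 genes at the less methylated end, over the span and at the other end; the grey band is the central 95% of all genes and the line their median. Dcn (-4.77) and Lum (-5.73) lie left of the band at the less methylated end, and no gene lies outside the band over the span or at the other end.

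The tendon regulators kept low ends in both ages. Mkx, a homeobox factor of tendon, on chromosome 18 at 6934966 to 7004779, stood at 3.68% in old and 4.45% in young cells at its less methylated end, at 52.7% in old and 52.5% in young cells over its span, and at 47.5% in old and 51.5% in young cells at its other end. Scx, or scleraxis, the bHLH factor that marks tendon progenitors, on chromosome 15 at 76457411 to 76459468, lies within the span of Bop1, a gene of ribosome assembly. Of the 10 genes it had the largest positive difference at its less methylated end, at 14.4% in old and 13.0% in young cells over 196 positions. It was also higher in old cells over its span (27.7% in old, 25.3% in young) and at its other end (72.2% in old, 68.1% in young). All 4 windows around Scx, flanks of 1 to 5 kb included, were higher in old cells, by 0.572 to 4.03 points, and none of its 646 positions had an authors' p under 0.05. Of all genes, 13.5% were higher by at least as much as Scx at the less methylated end. Among all genes, 72% of spans and 59.0% of other ends were higher in old cells.

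The mesenchymal factors Twist2 and Osr1 also had nearly the same levels in both ages at their ends. Twist2, a bHLH repressor of connective tissue precursors, on chromosome 1 at 91801461 to 91848034, was at 6.115% in old and 6.04% in young cells at its less methylated end and at 49.9% in old and 49.7% in young cells over its span. Its region held the tile with the smallest p of the 10 genes, 24.5 kb inside (91826001 to 91827000), with 66.6% in old and 56.7% in young cells over 26 positions and a doubled median p of 0.174, which was not called (Benjamini-Hochberg adjusted p 1). That tile also lies within Gm46117, a long non-coding RNA gene. Osr1, a zinc finger factor of embryonic connective tissue that marks developing fibro-adipogenic progenitors, on chromosome 12 at 9574442 to 9581500, was low at both ends. It stood at 12.99% in old and 12.4% in young cells at one and at 20.7% in old and 20.96% in young cells at the other.

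**Figure D3:**
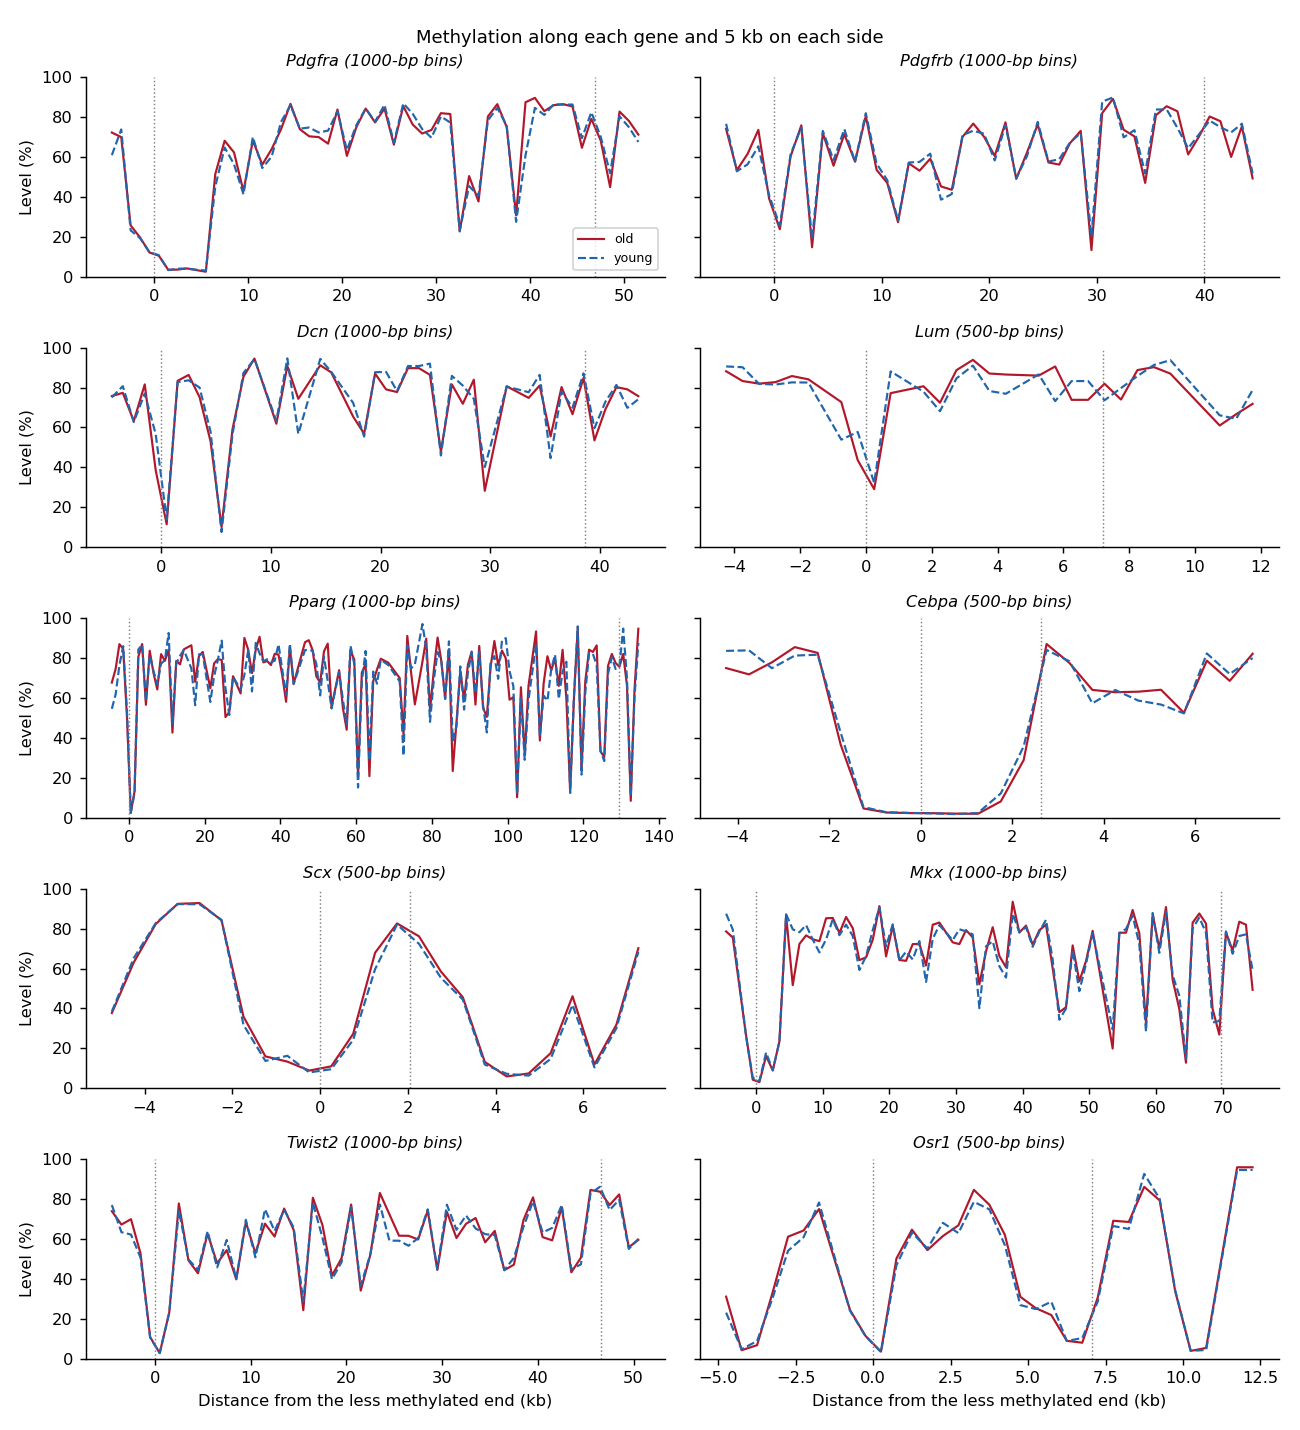
Methylation level (y axis, percent) along each gene from 5 kb before its less methylated end (0 on the x axis, kb) to 5 kb past its other end (both ends dotted), as means in bins of 1000 bp, or 500 bp for short genes; the red line is old and the dashed blue line young cells. The lines run together at the low ends, and the broad floors at the starts of Pdgfra and Cebpa are seen in both ages.

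Where each locus was unmethylated was mapped as stretches of at least 10 consecutive positions with a mean level over both ages under 20% and gaps of at most 500 bp. Pdgfra held the longest, 6550 bp with 535 positions (75150661 to 75157210), which begins before the gene and runs 5888 bp into it, at 4.74% in old and 5.01% in young cells. Only 0.148% of all genes had a stretch as long at their less methylated end, where the median gene had 1054 bp. Cebpa had 3216 bp at 2.75% in old and 2.95% in young cells, Mkx 2842 bp at 5.96% in old and 6.45% in young cells, Twist2 2023 bp at 4.72% in old and 4.61% in young cells, and Scx 2020 bp at 11.9% in old and 10.6% in young cells. Those of Cebpa and Mkx were reached by 3.21% and 4.78% of genes. Pparg (1445 bp), Osr1 (948 bp), Pdgfrb (567 bp) and Dcn (497 bp) had shorter ones, and Lum had none. The median over the 10 genes was 1732 bp.

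Most loci held further stretches away from that end. Pdgfra had 5 in all, the other 4 being of 115 to 685 bp, 2 before the gene and 2 inside it. The one farthest before the gene, of 248 bp, stood at 21.2% in old and 15.95% in young cells. Osr1 had 4, of 909 to 1097 bp: 1 at each end, 1 before the gene and 1 after it, with levels of 5.06% to 8.59% in old and 4.76% to 9.93% in young cells. The one before Osr1 overlaps the end of the long non-coding RNA gene 1700022H16Rik, and the one after it lies within Gm40268, another such gene. Mkx had a second stretch of 1349 bp inside the gene, 2084 bp from its less methylated end, at 8.42% in old and 8.14% in young cells, and another of 369 bp farther inside. Twist2 had a second of 323 bp inside. Scx was followed by 2 more, of 1602 and 649 bp, both beyond its span and within Bop1. Pparg had 4 in all, with 2 inside its body more than 100 kb from its start, of 477 and 405 bp, the first at 7.56% in old and 7.96% in young cells, and 1 of 866 bp beyond its span. Pdgfrb had a pair inside, both lower in old cells. One, of 510 bp and 18 positions, stood at 9.70% in old and 13.9% in young cells. The other, of 257 bp and 12 positions, stood at 11.3% in old and 18.9% in young cells. The smallest authors' p among their positions, before adjustment, were 0.0454 and 0.0307.

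Summed per age over all 10 regions, such stretches covered 31013 bp in old and 31320 bp in young cells, a difference of -307 bp. Its sign depended on the limit, with 1404 bp at a level under 10% and 449 bp under 30%. The difference was 337 bp in Twist2 and 182 bp in Pdgfrb, and -400 bp in Pdgfra and -313 bp in Scx. Dcn had 497 bp in both ages.

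**Figure D4:**
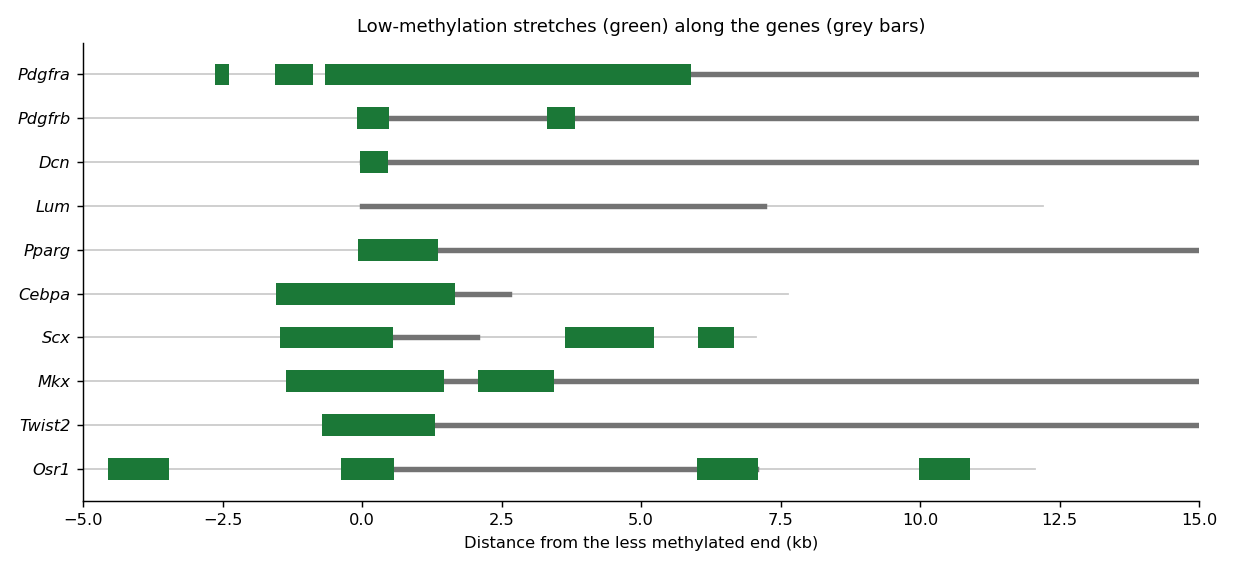
Low-methylation stretches (green; mean level over both ages under 20%) along each gene (thick grey line) and its flanks (thin line), as distance from the less methylated end in kb, shown to 15 kb. Pdgfra carries the longest stretch, of 6550 bp, Osr1 carries 4 separate ones, and Lum has none.

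Of the 9904 positions 11, or 0.111%, passed the authors' FDR of 0.05, against 0.236% of all positions, a share not matched for CpG density. Of these 8 were higher and 3 lower in old cells. Over all positions 43411 (0.132%) passed and were higher, and 34579 (0.105%) passed and were lower. Several of the 11 share 1 smoothed value with a neighbour and are not separate measurements. They lay in Mkx (5), Pparg (4) and beyond the end of Pdgfrb (2), and 7 genes held none. In 10 of the 11 the dispersion had its most common value in at least 1 age, 0.0434 in old and 0.0438 in young cells, which was so for 19.5% of all positions in these regions; 1 call was left without such positions.

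The calls in Mkx were all higher in old cells. A pair at 6937473 and 6937536, towards the far end of the gene, stood at 92.3% in old and 62.4% in young cells (authors' FDR 0.0207 and 0.0014). A second pair at 6946811 and 6946823 stood at 50.5% in old and 24.6% in young cells (authors' FDR 0.00157 each). Within each pair both positions had the same smoothed level and are not separate measurements. The fifth, at 6995591, stood at 82.2% in old and 74.7% in young cells. In Pparg, position 115413293 stood at 91.5% in old and 54.2% in young cells (authors' FDR 0.00136). All 4 positions within 100 bp, the call and its partner on the other strand included, had an authors' p under 0.05. They averaged the same smoothed level as the call and are not separate measurements. The other higher ones, at 115440187 and 115475788, stood at 67.7% and 95.5% in old and at 56.1% and 81.0% in young cells. Position 115476610 was lower, at 49.4% in old and 74.3% in young cells. Beyond Pdgfrb, the 2 calls were the 2 strands of 1 CpG at 61087341 and 61087342, at 42.4% in old and 71.2% in young cells (authors' FDR 3.29e-05 and 0.0422). It was the one CpG of the 10 regions called on both strands; at the other calls with a listed partner, the partner's FDR was 0.181 to 1.

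At a p under 0.05 before adjustment, the authors' table had 159 positions in these regions, or 1.61%, against 2.61% of all positions. The median share over all gene regions was 1.51%. The share was broadly higher where CpGs were sparser, but not in strict order. Of Lum, Pparg and Dcn, Lum had the densest CpGs and the highest share. The share was 7.43% in Lum, 4.04% in Pparg and 3.65% in Dcn, which have 7.87 to 10.2 positions per kb, and 0% in Cebpa and Scx, which have 59.3 and 53.6. Gene regions of a density within 1.2 times that of Lum had a median of 3.32%, those near Dcn 4.125%, and those near Pparg 3.85%. Of all 21409 gene regions 5.12% reached the share of Lum.

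Tiles of 1 kb gave no call in these regions. Of 306 tiles with at least 10 positions, 0 passed on the doubled median p after Benjamini-Hochberg adjustment and 0 had an unadjusted p under 0.05, against 8.12e-05% and 0.106% of 1231304 tiles of the genome. At least 10 points higher in old cells were 2 tiles, in Mkx and before Pparg, and 2 were at least 10 points lower, in Pparg and beyond Pdgfrb, against 1.29% and 0.837% of all tiles. The highest, before Pparg at 115356001 to 115357000, stood at 70.6% in old and 57.7% in young cells, and the lowest, inside Pparg at 115386001 to 115387000, at 50.4% in old and 64.9% in young cells.

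The dispersion at the less methylated ends was close to that of other genes, with medians of 0.0457 in old and 0.0464 in young cells, against 0.0461 in old and 0.0464 in young cells over all genes. Along the genes it was highest in the middle of the Pdgfrb body, at 0.0631 in old and 0.0646 in young cells, followed in young cells by the flank 1 to 5 kb before Twist2, at 0.056 in old and 0.0602 in young cells. The widest gap between the ages was at the other end of Pparg, at 0.0589 in old and 0.0465 in young cells, where the level was 76.4% in old and 76.6% in young cells. At the CpG-poor Dcn end 55% of positions carried the commonest dispersion in one age or both, against 1.7% at the end of Cebpa.

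Over their spans the 10 genes were split evenly, with 5 higher and 5 lower in old cells and a median difference of 0.0296 points. Over all spans 72% were higher in old cells, with a median of 0.389 points. At the other ends 2 were higher and 8 lower, where 59.0% of 19075 genes were higher in old cells. The median was -1.48 points for the 10 genes, beside 0.47 points over all of those. Scx (4.03 points) and Mkx (-3.91 points) differed most there. Of 28 other fibro-adipogenic and connective tissue genes 18 had higher spans in old cells, as had 11 of 13 tendon genes, 15 of 20 adipogenesis genes, 3 of 4 PDGF ligand genes, 5 of 10 muscle stem cell genes, 13 of 15 endothelial genes and 9 of 15 blood cell genes. None of the ends in these lists was called either.

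At the less methylated end the 10 genes had a lower median level than the markers of the blood and endothelial lineages. The median over the 10 was 12.2% in old and 12.0% in young cells, and 7 of 10 were under 20% in both ages, as were 62.5% of all genes. Other fibro-adipogenic and connective tissue genes had a median of 14.1% in old and 12.8% in young cells, tendon genes 18.5% and 17.9%, adipogenesis genes 8.95% and 9.70%, and PDGF ligands 35.8% and 32.4%. Muscle stem cell genes stood at 7.01% in old and 7.80% in young cells, endothelial genes at 40.4% and 42.5%, and blood cell genes at 59.4% and 59.8%. The lists differ in CpG number as well, with medians of 161 positions per end for the 10 genes, 125 for muscle stem cell, 56 for endothelial and 35 for blood cell genes, so that lineage and CpG density cannot be told apart here.

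**Figure D5:**
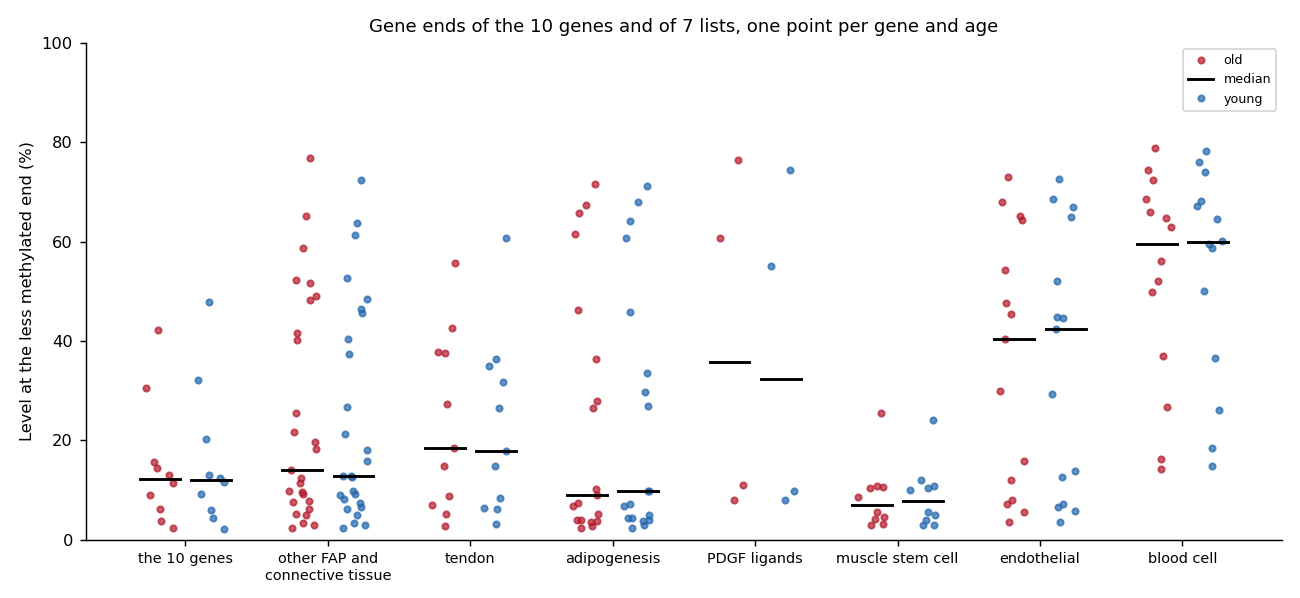
Level within 1 kb of the less methylated end (y axis, percent), 1 point per gene, for the 10 genes and 7 lists, with old cells (red) left of young cells (blue) in each and black bars at the medians. The 10 genes lie between 2.29% and 42.1% in old cells, with a median of 12.2%, and the blood cell genes have the highest median, 59.4%.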

How the data were processed

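DNA of 8 libraries (4 old, 4 young, grouped by the age in the labels) was bisulfite sequenced. The submitters' processing notes name the tools Trim Galore, Bismark and edgeR and the builds mm10 and GRCm38; their versions and roles, and what smoothed the levels, are not given in the sources. The methylation level mu is deposited as a fraction from 0 to 1 per age, shown here in percent. The dispersion phi is a score between 0 and 1 from the authors, with no definition in the sources. Each position also has the authors' deposited p-value for the comparison of the ages and an FDR.

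Positions count from 0 in the table: read so, 99.7% of those in RefSeq promoter windows fall on a CG, against 55.1% otherwise. Printed coordinates count from 1. Gene spans and promoter sequences came from RefSeq GRCm38.p6, and all 10 genes were matched by symbol; strand and sequence were matched for 4. Positions had equal weight. Windows, spans and 1-kb tiles with at least 10 positions were given 2 times their median deposited p, which bounds a window's p under any dependence of its positions, adjusted by Benjamini-Hochberg over the whole table at 0.05. The tests planned on read counts or animals were not run, since neither is in this table. Genes, lists and tests were chosen with earlier results of these data known. All 10 genes were named by rule, with each region's tile of smallest p and its stretches, and in each list the 3 genes with the largest difference at the less methylated end; 1 blood cell gene so chosen is not reported here. Alternatives were other windows, tiles, weights, limits and p rules. Python 3.11.15 with numpy 2.4.6, pandas 2.3.3 and matplotlib 3.10.9 was used.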

Additional observations from a re-analysis of the deposited data

How the results depend on the processing

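Calls of gene ends, spans and tiles at the 10 genes stayed at 0 with windows of 500 and 2000 bp, tiles of 500 and 2000 bp, 4 times the lower quartile of p, at least 20 positions, and on leaving out positions at the commonest dispersion. The 11 positions past the authors' FDR became 7 at 0.01 and 1 on leaving out those positions. The median end difference of -0.218 points became 0.016 in 2000-bp windows, -0.528 with equal weight per 100-bp bin and -0.692 after subtracting the genome-wide difference. Over all genes the same settings gave 0.028, -0.0439 and -0.524 points, so the sign changed at 2000 bp there too. The span median of 0.0296 points became 0.0901 per bin, 0.0962 with 5 kb flanks and -0.444 after subtraction. Over all spans these settings gave 0.459, 0.383 and -0.0839 points. The summed stretch length of -307 bp became 1404 bp under 10%, 449 bp under 30% and -35 bp with gaps of at most 200 bp. For each of these the cause was not tested. No paired analysis was possible because the table holds 1 value per age and no value per animal; leaving out animals and coverage minimums were not run for the same reason.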

Other observations

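Of the other genes of these lineages, those with the largest differences at the less methylated end in each list are given here, and none was called (Benjamini-Hochberg adjusted p 1 each, on the doubled median of the authors' p). Tnmd, which encodes the tendon membrane protein tenomodulin, stood at 42.5% in old and 31.8% in young cells over 20 positions, and Cilp, a cartilage matrix protein gene, at 55.6% in old and 60.8% in young cells. Chad, which encodes chondroadherin, stood at 37.7% in old and 34.9% in young cells. Ly6a, which encodes the Sca1 antigen used to gate out fibro-adipogenic progenitors, stood at 51.7% in old and 46.4% in young cells over 19 positions. Cd55, a complement regulator, stood at 76.7% in old and 72.4% in young cells, and Fmod, the fibril-binding fibromodulin, at 40.2% in old and 37.4% in young cells.

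Of the adipogenesis genes, the lipid synthesis regulator Srebf1 stood at 26.5% in old and 29.8% in young cells, the leptin gene Lep at 36.4% in old and 33.5% in young cells, and the adiponectin gene Adipoq at 65.7% in old and 64.1% in young cells. Among PDGF ligands, Pdgfb stood at 60.6% in old and 55.1% in young cells, Pdgfa at 76.5% in old and 74.5% in young cells, and Pdgfd at 11.02% in old and 9.78% in young cells. In the comparison lists, Lyz2, a lysozyme of myeloid cells, stood at 52.1% in old and 59.5% in young cells, and Csf1r, the receptor of macrophages, at 62.8% in old and 60.2% in young cells. The endothelial genes Eng, Egfl7 and Cdh5 stood at 47.7%, 64.3% and 54.2% in old and at 44.8%, 66.9% and 52.0% in young cells. The muscle stem cell genes Vcam1, Calcr and Cdh15 stood at 10.4%, 8.51% and 25.5% in old and at 12.0%, 9.95% and 24.1% in young cells.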
